A study of Homo sapiens with 6 samples.

Results

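The 48 genes described here encode regulators of pre-mRNA splicing outside the hnRNP H/F family. They comprise 22 hnRNP genes (16 of the A/B, C, L, M, R and U types, 3 with KH domains and the 3 PTB genes), 12 SR protein genes, the 2 TRA2 genes, 4 factors that act at splice sites, 7 regulators known from tissue-specific splicing and RBM41, a protein of the minor spliceosome. The members were picked by gene symbol and by no rule on measured values, though earlier results of these data were known. All 48 were found among the 31831 genes of the count table, and all 48 were among the 17142 genes that passed the low-count filter and were tested.

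RNA-seq was performed on HK-2 cells, an established human line of proximal tubular epithelium, with 3 libraries in each of 2 groups. HG-NC cells received the control lentivirus with an empty vector, and HG-OE cells received a lentivirus that overexpressed hnRNP-F. Both groups were kept in medium with 30 mM glucose for 72 h, so that the lentiviral treatment and the high glucose are common to all 6 libraries, and cells in the mannitol medium of the study were not analysed here. RNA was captured by its poly(A) tail and made into directional libraries. The study describes the libraries of a group as biological replicates and its cells as grown in parallel wells, but how each library relates to a well or culture is not given in the sources used here, and p-values measure the spread between these libraries. In such bulk RNA a lower level of a transcript in every cell cannot be told apart from fewer cells that carry it.

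Library totals were 25507595 to 29444841 counts, and TMM factors were 0.997 to 1.00. HNRNPF itself measured 311 ± 7.23 CPM in HG-NC against 435 ± 14.9 CPM in HG-OE, for a log2 fold change of 0.48 ± 0.039 (SE, adjusted p = 2.80e-07). Whether the lentiviral insert carried the human or the mouse sequence was not settled here, and these counts come from reads aligned to the human genome, so that they may not take in all transcripts of the insert. The renal marker PAX8 was present (637 ± 29.8 CPM in HG-NC against 447 ± 34.4 CPM in HG-OE). The proximal tubule markers LRP2 and HNF4A had no count in HG-NC. In HG-OE they had 17 and 323 counts, all in replicate 3. The proximal tubule markers AQP1 and ANPEP were at 0.157 and 0.0723 CPM in HG-NC, and the leukocyte marker PTPRC was at 0.0373 CPM. ANPEP had 54 counts in HG-OE replicate 3 and at most 4 counts in any other library. In HG-OE some epithelial and mesenchymal markers were higher and others lower, without overlap between the groups for those named as such. The keratins KRT8 and KRT18 were 2.55-fold (adjusted p = 9.13e-07) and 1.70-fold (adjusted p = 0.00101) higher in HG-OE. HG-OE replicate 3 raised both folds. KRT8 was at 629, 653 and 983 CPM in the HG-OE libraries against a mean of 296 CPM in HG-NC. KRT18 was at 278, 282 and 488 CPM against a mean of 206 CPM. KRT19 fell by 31.6% (adjusted p = 0.000146), EPCAM fell by 32.1% (adjusted p = 3.92e-06) and CLDN1 fell by 45.4% (adjusted p = 8.18e-09). Of the mesenchymal markers, vimentin (VIM) was 1.86-fold higher (adjusted p = 9.56e-10) and CDH2 1.19-fold higher (adjusted p = 0.000144). FN1 fell by 15.7% (adjusted p = 6.76e-05) and SNAI2 fell by 17.7% (adjusted p = 0.00107). COL1A1 (adjusted p = 0.0859) and ZEB1 (adjusted p = 0.0894) did not pass 0.05, and COL3A1 was too low to test. HG-OE replicate 3 stood apart from the other libraries. Its summed level over 5 markers of squamous epithelium was 45.8 CPM, against at most 0.118 CPM in the HG-NC libraries, with 0.103 CPM in the lowest HG-OE library. Over 6 hepatocyte markers its sum was 634 CPM, with 461 CPM in the lowest HG-OE library and 265 to 276 CPM in HG-NC. SERPINA1 made up most of these sums, at a mean of 266 CPM in HG-NC against 437 CPM in HG-OE. Replicate 3 of HG-OE had 148 CPM of ALB, 53.9 CPM of APOB and 33.9 CPM of FGB. The other libraries had at most 2.79, 1.89 and 4.60 CPM of these. The epithelial marker CDH1 had 384 counts in HG-OE replicate 3, against 2 to 10 counts in the other libraries. The part of these markers in the members' results was not tested, and the members that change without that library are named where they are described.

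Heterogeneous nuclear ribonucleoproteins (hnRNPs) coat nascent transcripts and often repress the exons beside the sites they bind. SR proteins carry a domain rich in arginine and serine, bind exonic enhancers and recruit the machinery that defines an exon, and the choice of an exon often depends on the balance between both classes. Muscleblind-like, CELF, RBFOX, quaking and ESRP proteins add programmes that differ between tissues, the ESRP proteins being known for epithelial exons. Many of these genes limit their own level through exons that bring in a premature stop codon and send the mRNA to nonsense-mediated decay.

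The levels of a gene in each library are given as CPM, that is counts scaled to library size, with TMM factors. Differences are log2 fold changes of HG-OE over HG-NC with their standard error (SE). A member is called where edgeR's quasi-likelihood test gave a Benjamini-Hochberg adjusted p under 0.05 over all 17142 genes, and the threshold for a DEG asks in addition for at least a 2-fold change. By the first rule 31 of the 48 members (64.6%) were called, against a background of 51.8% of all genes tested. Of these, 14 were higher in HG-OE and 17 were lower, against a background of 25.9% of genes called higher and 25.9% called lower. Most members are abundantly counted, and of the 40 members with a mean of at least 1000 counts 72.5% were called, against 68.6% of the 5780 genes at that depth. No member reached the DEG threshold, which 5.82% of all genes tested reached (3.69% higher and 2.13% lower), and DESeq2 and limma put none past it either. Before adjustment 32 members had a p under 0.05 in edgeR, and 0 of them differed by at least 2-fold. The exact permutation test of a single member cannot go below 0.1 with 3 libraries against 3.

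The changes were small. The median absolute log2 fold change of the 48 members was 0.16, against 0.27 over all genes tested and 0.21 over the genes with a mean of at least 1000 counts. In all, 34 members (70.8%) differed by less than 1.2-fold, as did 48.2% of all genes tested and 59.8% of the genes with a mean of at least 1000 counts. Only 4 called members, MBNL2, QKI, HNRNPLL and HNRNPA0, moved by at least 1.5-fold, and 18 of the 31 called members moved by less than 1.2-fold. When glmTreat in edgeR asked for a change beyond 1.2-fold, 10 members remained, 4 of them higher (HNRNPA0, HNRNPAB, SRSF6 and SRSF5) and 6 lower (MBNL2, QKI, HNRNPLL, MBNL1, HNRNPR and HNRNPDL). This is 20.8% of the members, against 24.3% of all genes. The libraries of both groups did not overlap for 31 members (64.6%), against 59.0% of all genes.

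**Figure D1:**
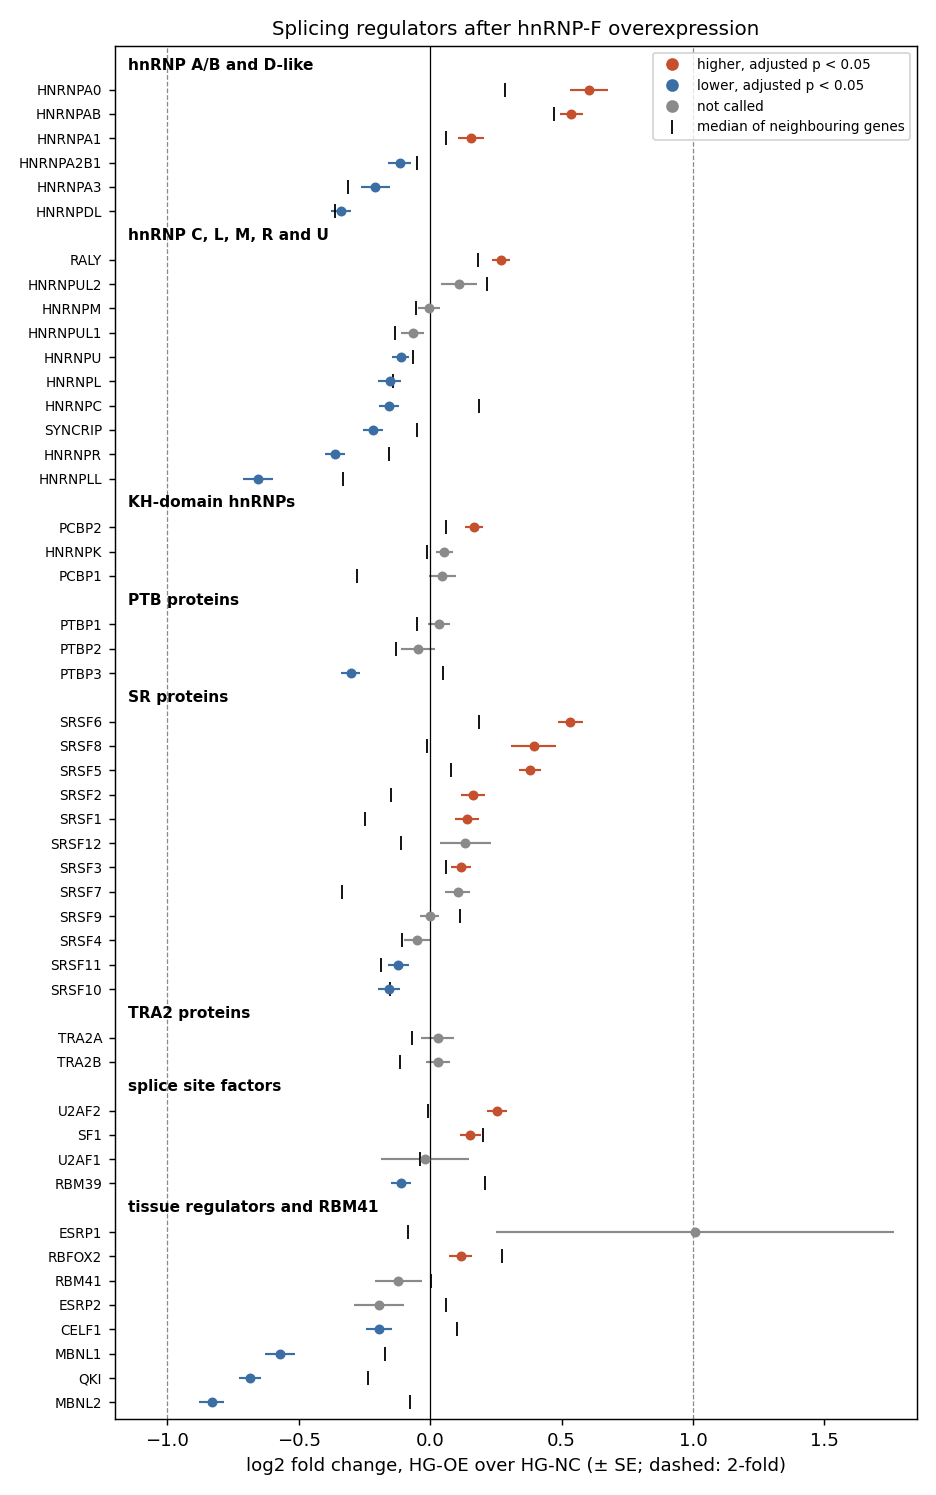
Log2 fold change of HG-OE over HG-NC (horizontal axis) for the 48 members, by role, with bars of ± SE from the edgeR fit. Colours mark members called higher (14), lower (17) or not called (17) at an adjusted p under 0.05, dashed lines mark 2-fold, and black ticks give the median of neighbouring genes within 10 Mb. MBNL2 lies farthest to the left at -0.83, and ESRP1, at 1.01, has an SE of 0.76.

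The regulators of tissue-specific splicing, described together with RBM41, held the 2 members with the largest called changes, MBNL2 and QKI. Of the 8, 4 were lower in HG-OE (MBNL2, QKI, MBNL1 and CELF1), 1 was higher (RBFOX2) and 3 were not called (ESRP1, ESRP2 and RBM41). The share called was 62.5%, against 51.8% of all genes tested. Their median absolute log2 fold change was 0.38. Positions are given on GRCh38 (hg38) after GENCODE release 44.

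MBNL2 (ENSG00000139793.19, chr13:97221434-97394120, plus strand) encodes muscleblind-like 2, a zinc-finger protein that switches transcripts from fetal to adult splice forms. Its level was 95.0, 90.2 and 89.8 CPM in the HG-NC libraries against 54.1, 50.0 and 50.6 CPM in the HG-OE libraries. Every HG-OE library was thus far under every HG-NC library, and the level fell by 43.8%, with a log2 fold change of -0.83 ± 0.048 (SE, adjusted p = 1.41e-08). MBNL1 (ENSG00000152601.18, chr3:152243828-152465780, plus strand), its close relative, stood at 111, 110.2 and 113 CPM in HG-NC and at 81.8, 68.1 and 74.7 CPM in HG-OE. Again the groups did not overlap, with more spread among the HG-OE libraries, and the log2 fold change was -0.57 ± 0.057 (SE, adjusted p = 2.01e-06). Both muscleblind-like genes thus fell. FPKM is scaled by a length of each gene that is not given in the sources used here. It need not be that of the main transcript, so that orders of members per length are those of the deposited FPKM only. By FPKM MBNL2 was the highest of these 8 genes, at 16.7 ± 0.485 FPKM in HG-NC against 9.30 ± 0.452 FPKM in HG-OE.

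QKI (ENSG00000112531.17, chr6:163414000-163578592, plus strand) encodes quaking, a STAR protein with a KH domain that controls splicing and circular RNA formation. Its libraries were at 165, 159 and 160.5 CPM in HG-NC and at 103, 95.4 and 103 CPM in HG-OE. The lowest HG-NC library exceeded the highest HG-OE library by a wide margin, and the level fell by 37.8%, with a log2 fold change of -0.69 ± 0.042 (SE, adjusted p = 2.72e-08). Among the 12 members with the largest called changes, QKI, HNRNPLL and SRSF6 are those with an annotated cassette exon that holds the stop codon of a transcript marked for nonsense-mediated decay. These 3 exons are shown because they are the stretches through which such mRNAs can be turned over. Each is given from the hg38 genome in the direction of the gene, with exons as in GENCODE release 44 and the stop codon in capitals. The exon of QKI has 171 bases and lies in intron 2 (chr6:163457381-163457551, plus strand).
QKI cassette exon: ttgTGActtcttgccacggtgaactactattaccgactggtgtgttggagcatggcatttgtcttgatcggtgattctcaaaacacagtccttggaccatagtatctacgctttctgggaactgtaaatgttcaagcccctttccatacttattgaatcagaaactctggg
A gene's count adds up transcripts with and without such an exon, so the level of each form was not measured here.

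CELF1 binds GU-rich elements and acts against the muscleblind-like proteins on many exons. It measured 116, 105 and 109 CPM in HG-NC against 91.9, 96.3 and 100.45 CPM in HG-OE, without overlap, and its log2 fold change was -0.19 ± 0.048 (SE, adjusted p = 0.00388). RBFOX2, which binds UGCAUG beside regulated exons, was the only tissue regulator called higher. It was at 74.2, 79.1 and 77.2 CPM in HG-NC and at 82.8, 84.3 and 82.8 CPM in HG-OE, where all HG-OE libraries were slightly higher, and its log2 fold change was 0.12 ± 0.043 (SE, adjusted p = 0.0351). The call for RBFOX2 was the least stable of all, being made in 5 of the 14 alternative settings that test for any change.

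ESRP1, the defining regulator of epithelial exons, was almost absent. It had 42, 22 and 28 counts in the HG-NC libraries and 9, 16 and 178 counts in the HG-OE libraries. The third HG-OE library, the one with the squamous and hepatocyte markers, was above all others, while the remaining HG-OE libraries were under all of HG-NC. With that library the log2 fold change was 1.01 ± 0.76 (SE, adjusted p = 0.287), and without it the value was -1.41 (adjusted p = 0.00228), past the DEG threshold. The direction for ESRP1 therefore rests on 1 library. ESRP2, the more abundant epithelial regulator here, was at 20.8, 21.7 and 24.2 CPM in HG-NC and at 17.5, 18.3 and 22.5 CPM in HG-OE. Its groups overlapped, with a log2 fold change of -0.19 ± 0.095 (SE, adjusted p = 0.105). RBM41, the protein of the minor spliceosome, was at 12.5, 11.7 and 11.2 CPM in HG-NC and at 10.4, 11.4 and 10.7 CPM in HG-OE. The groups overlapped and the log2 fold change was -0.12 ± 0.089 (SE, adjusted p = 0.275). Without HG-OE replicate 3, ESRP1 and ESRP2 were called lower, so that 6 of these 8 genes were lower and 1 was higher. In that setting 53.9% of all genes tested were called.

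**Figure D2:**
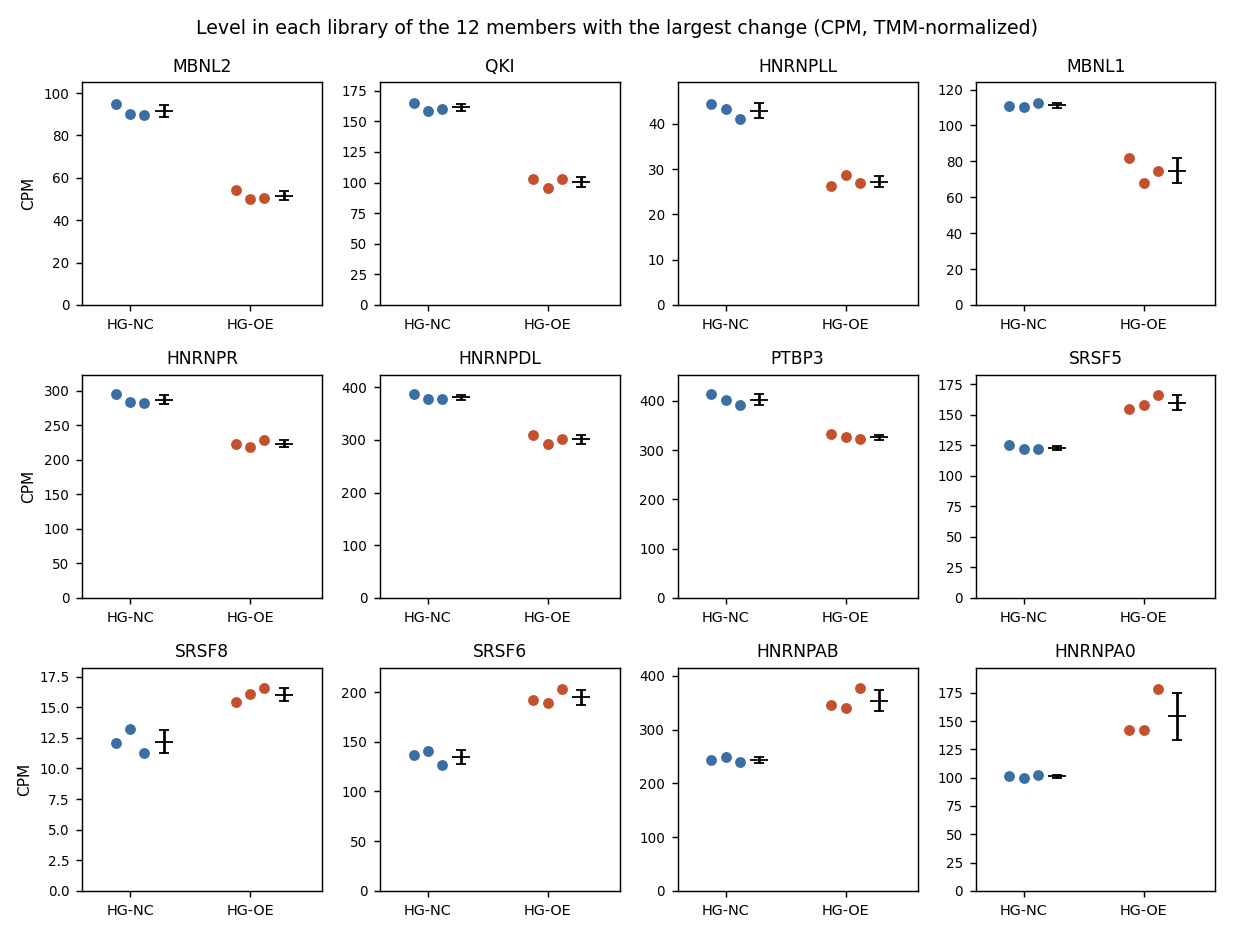
Level in CPM (vertical axes, each from 0) of the 12 members with the largest called change, with 1 point per library and black bars for mean ± SD of 3 libraries in each group. For all 12 members the HG-OE points lie entirely below (MBNL2, QKI, HNRNPLL, MBNL1, HNRNPR, HNRNPDL and PTBP3) or entirely above (SRSF5, SRSF8, SRSF6, HNRNPAB and HNRNPA0) the HG-NC points.

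The hnRNP A/B and D-like genes went both ways. All 6 were called, with HNRNPA0, HNRNPAB and HNRNPA1 higher and HNRNPDL, HNRNPA3 and HNRNPA2B1 lower in HG-OE. The share called was 51.8% over all genes tested and 68.6% over those with a mean of at least 1000 counts. HNRNPA0 (ENSG00000177733.7, chr5:137745651-137754363, minus strand) is a gene with 1 exon whose protein binds AU-rich elements of inflammatory mRNAs. Its libraries were at 102, 99.97 and 103 CPM in HG-NC and at 142, 142 and 178 CPM in HG-OE. The third HG-OE library was higher than the rest of its group, but all HG-OE libraries exceeded all of HG-NC. The log2 fold change was 0.60 ± 0.072 (SE, adjusted p = 1.06e-05), and 0.49 without HG-OE replicate 3. HNRNPAB (ENSG00000197451.12, chr5:178204533-178211163, plus strand), which binds mRNA in nucleus and cytoplasm, rose by 45.1%. Its level was 243, 249.9 and 239 CPM in HG-NC against 346, 340.0 and 377 CPM in HG-OE, again without overlap, with a log2 fold change of 0.54 ± 0.044 (SE, adjusted p = 3.45e-07). It had the highest FPKM of the 6, at 103 ± 2.04 FPKM in HG-NC against 148 ± 8.42 FPKM in HG-OE. The other well-counted genes within 10 Mb of HNRNPAB had a median log2 fold change of 0.47, close to that of the gene itself.

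HNRNPDL (ENSG00000152795.18, chr4:82422565-82430462, minus strand), a relative of the AU-rich element binding protein AUF1, was at 387, 378 and 378 CPM in HG-NC and at 310.2, 292 and 302 CPM in HG-OE. The groups were well apart, and the log2 fold change was -0.34 ± 0.037 (SE, adjusted p = 4.89e-06). The neighbours of HNRNPDL had a median of -0.36. The classical splicing repressors of the family had smaller log2 fold changes. HNRNPA1 measured 640.0, 600.3 and 605 CPM in HG-NC against 662, 653 and 741 CPM in HG-OE, with a log2 fold change of 0.16 ± 0.048 (SE, adjusted p = 0.0149), and 0.096 (adjusted p = 0.0165) without HG-OE replicate 3. HNRNPA2B1, the most counted member of the whole list, was at 1266, 1190.1 and 1175 CPM in HG-NC and at 1096, 1074 and 1181 CPM in HG-OE. It was the only called member whose groups overlapped, since HG-OE replicate 3 lay above the lowest HG-NC library, and its log2 fold change was -0.12 ± 0.042 (SE, adjusted p = 0.0341). HNRNPA3 had 428, 406 and 399.7 CPM in HG-NC against 337, 338 and 392 CPM in HG-OE, with a log2 fold change of -0.21 ± 0.055 (SE, adjusted p = 0.00566). Of the 14 alternative settings, HNRNPA2B1 was called in 6, HNRNPA1 in 9 and HNRNPA3 in 12.

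Of the 10 hnRNP genes of the C, L, M, R and U types, 6 were lower in HG-OE (HNRNPLL, HNRNPR, SYNCRIP, HNRNPC, HNRNPL and HNRNPU), RALY was higher and HNRNPUL1, HNRNPM and HNRNPUL2 were not called. The share called was 70.0%, against 51.8% of all genes tested and 68.6% of those with a mean of at least 1000 counts. HNRNPLL (ENSG00000143889.16, chr2:38561969-38603586, minus strand), known for its part in the splicing of CD45 in T cells, fell by 36.5%. It was at 44.4, 43.3 and 41.1 CPM in HG-NC and at 26.2, 28.6 and 26.9 CPM in HG-OE. The groups were far apart and the log2 fold change was -0.66 ± 0.057 (SE, adjusted p = 5.56e-07). Its annotated cassette exon with a stop codon has 83 bases and lies in intron 6 (chr2:38577920-38578002, minus strand).
HNRNPLL cassette exon: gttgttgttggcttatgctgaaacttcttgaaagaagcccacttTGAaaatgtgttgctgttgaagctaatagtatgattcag
HNRNPL, the paralog that binds CA-rich elements, had a smaller log2 fold change. It was at 154, 161 and 159.5 CPM in HG-NC and at 138, 139 and 149.9 CPM in HG-OE, with a log2 fold change of -0.15 ± 0.043 (SE, adjusted p = 0.00877).

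HNRNPR (ENSG00000125944.21, chr1:23303771-23344336, minus strand) and SYNCRIP (hnRNP Q) are close relatives with roles in mRNA transport and stability. HNRNPR was at 295, 284 and 283 CPM in HG-NC and at 223, 219 and 229 CPM in HG-OE, without overlap, and its log2 fold change was -0.36 ± 0.038 (SE, adjusted p = 3.25e-06). For SYNCRIP the libraries stood at 161, 156 and 160.0 CPM in HG-NC and at 136, 136 and 138 CPM in HG-OE. These groups did not overlap either, with a log2 fold change of -0.22 ± 0.037 (SE, adjusted p = 0.000249). HNRNPC, a core protein of hnRNP particles that binds uridine tracts, was the most abundant of these 10 genes per length, at 118 ± 4.63 FPKM in HG-NC against 105 ± 1.63 FPKM in HG-OE. Its libraries were at 1008, 934 and 948 CPM in HG-NC and at 853, 860.5 and 880.0 CPM in HG-OE, with a log2 fold change of -0.16 ± 0.037 (SE, adjusted p = 0.00303). RALY, the relative of hnRNP C, went the other way, from 216, 216 and 214 CPM in HG-NC to 261, 256 and 262 CPM in HG-OE. The log2 fold change of RALY was 0.27 ± 0.036 (SE, adjusted p = 2.59e-05).

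HNRNPU, also called scaffold attachment factor A, was at 865, 865 and 851 CPM in HG-NC and at 808, 783 and 798 CPM in HG-OE. All HG-OE libraries were lower, but only slightly, with a log2 fold change of -0.11 ± 0.033 (SE, adjusted p = 0.0113). HNRNPM, a regulator of splicing in epithelial to mesenchymal transition, had a log2 fold change of -0.0050 ± 0.043 (SE, adjusted p = 0.932). The hnRNP U-like genes HNRNPUL1 and HNRNPUL2 had values of -0.066 ± 0.044 (SE, adjusted p = 0.226) and 0.11 ± 0.068 (SE, adjusted p = 0.204). Without HG-OE replicate 3, HNRNPUL1 was called lower, which made 7 of the 10 lower, and 53.9% of all genes tested were called in that setting.

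Of the KH-domain hnRNPs, which bind cytosine-rich RNA, PCBP2 was higher and HNRNPK and PCBP1 were not called. HNRNPK had the highest FPKM of all 48 members in HG-NC, at 126 ± 1.59 FPKM in HG-NC against 129 ± 2.10 FPKM in HG-OE. Its libraries were at 724, 706 and 714 CPM in HG-NC and at 750.1, 735 and 742 CPM in HG-OE. These values did not overlap, yet the log2 fold change of 0.054 ± 0.033 (SE, adjusted p = 0.187) was not called, which was so for no other member without overlap. PCBP2 rose from 262, 258 and 258 CPM to 291, 295 and 288 CPM, with a log2 fold change of 0.17 ± 0.035 (SE, adjusted p = 0.00123). PCBP1, an intronless gene, had a log2 fold change of 0.046 ± 0.051 (SE, adjusted p = 0.472).

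The PTB proteins bind pyrimidine-rich stretches and repress neuronal exons in other tissues. PTBP1, the general form, was at 321, 337 and 333 CPM in HG-NC and at 322, 349.8 and 342 CPM in HG-OE. Its groups overlapped, with a log2 fold change of 0.033 ± 0.041 (SE, adjusted p = 0.519). PTBP3 (ENSG00000119314.16, chr9:112217716-112333664, minus strand), the form first described in blood cells, had the highest FPKM of the 3 in HG-NC, at 43.7 ± 1.01 FPKM in HG-NC against 35.1 ± 0.699 FPKM in HG-OE. PTBP1 was at 39.3 ± 1.05 FPKM in HG-NC against 39.8 ± 1.42 FPKM in HG-OE, and thus had the higher FPKM of both in HG-OE. The main annotated transcript of PTBP1 has 3206 bases and that of PTBP3 has 7192 bases, so that their order depends on the length used. PTBP3 fell from 414, 401 and 392 CPM in HG-NC to 332, 326 and 322 CPM in HG-OE, without overlap, and its log2 fold change was -0.30 ± 0.037 (SE, adjusted p = 1.26e-05). PTBP2, the neuronal form, was low and had a log2 fold change of -0.047 ± 0.065 (SE, adjusted p = 0.573).

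Of the 12 SR protein genes, 6 were higher in HG-OE (SRSF6, SRSF8, SRSF5, SRSF2, SRSF1 and SRSF3), 2 were lower (SRSF10 and SRSF11) and 4 were not called (SRSF4, SRSF7, SRSF9 and SRSF12). The share called was 66.7%, against 51.8% of all genes tested and 68.6% of those with a mean of at least 1000 counts. SRSF6 (ENSG00000124193.16, chr20:43457893-43466046, plus strand), an SR protein known from keratinocyte and wound-healing splicing, rose by 44.7%. It was at 137, 141 and 127 CPM in HG-NC and at 192, 189 and 204 CPM in HG-OE. All HG-OE libraries exceeded all HG-NC libraries, with a log2 fold change of 0.53 ± 0.047 (SE, adjusted p = 6.87e-07). Its cassette exon with a stop codon has 268 bases and lies in intron 2 (chr20:43459153-43459420, plus strand).
SRSF6 cassette exon: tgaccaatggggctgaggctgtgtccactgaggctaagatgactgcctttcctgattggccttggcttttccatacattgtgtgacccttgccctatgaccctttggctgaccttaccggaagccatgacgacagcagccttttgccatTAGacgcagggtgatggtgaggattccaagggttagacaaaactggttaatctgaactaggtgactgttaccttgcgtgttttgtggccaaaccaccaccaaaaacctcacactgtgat
Such exons were counted where they lie inside an intron of the main annotated transcript, are joined to its splice sites and hold the whole stop codon. By this rule 15 of the 48 members had one, of which 5 were higher, 5 were lower and 5 were not called. Of all genes tested, 25.9% were called higher and 25.9% lower. ESRP1 was left out of this count. A transcript marked for nonsense-mediated decay, with or without such an exon, is annotated for 40 members.

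SRSF5 (ENSG00000100650.16, chr14:69726900-69772005, plus strand), an activator of exon inclusion, was at 125, 121 and 122 CPM in HG-NC and at 155, 158 and 166 CPM in HG-OE. The groups did not overlap and the log2 fold change was 0.38 ± 0.041 (SE, adjusted p = 4.11e-06). SRSF8 (ENSG00000263465.5, chr11:95066919-95071225, plus strand), an expressed retrocopy of SRSF2, was low at 12.1, 13.2 and 11.3 CPM in HG-NC against 15.5, 16.1 and 16.6 CPM in HG-OE. Its change was of like size, with a log2 fold change of 0.39 ± 0.085 (SE, adjusted p = 0.00148). SRSF1, the best-known SR protein, was at 71.7, 69.2 and 66.6 CPM in HG-NC and at 74.6, 74.6 and 79.4 CPM in HG-OE. These groups lay close together without overlap, and the log2 fold change was 0.14 ± 0.047 (SE, adjusted p = 0.0226). The call for SRSF1 was lost without HG-OE replicate 3 (0.11, adjusted p = 0.0544), and it was made in 8 of the 14 alternative settings. SRSF2 and SRSF3 had log2 fold changes of 0.16 ± 0.047 (SE, adjusted p = 0.00999) and 0.12 ± 0.039 (SE, adjusted p = 0.0221), and that of SRSF2 was 0.11 (adjusted p = 0.0174) without HG-OE replicate 3.

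The SR proteins SRSF11 and SRSF10 were lower. SRSF11, also called p54, was at 153, 144 and 144 CPM in HG-NC and at 135, 134 and 136 CPM in HG-OE. The groups did not overlap, and the log2 fold change was -0.12 ± 0.040 (SE, adjusted p = 0.0208). SRSF10, which turns into a repressor when it loses its phosphates, had a log2 fold change of -0.16 ± 0.042 (SE, adjusted p = 0.00692). SRSF9, the most abundant SR protein per length at 67.7 ± 1.56 FPKM in HG-NC against 66.9 ± 0.815 FPKM in HG-OE, was at 279, 274 and 285 CPM in HG-NC and at 282, 279 and 278 CPM in HG-OE. The libraries of both groups were interleaved, with a log2 fold change of -0.0011 ± 0.036 (SE, adjusted p = 0.983). For SRSF7 the value was 0.10 ± 0.047 (SE, adjusted p = 0.0754), for SRSF4 it was -0.049 ± 0.051 (SE, adjusted p = 0.451) and for SRSF12, the relative of SRSF10, it was 0.13 ± 0.097 (SE, adjusted p = 0.270).

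The TRA2 proteins bind GAA-rich enhancers beside the SR proteins, and neither gene was called. TRA2A was at 68.3, 63.7 and 59.3 CPM in HG-NC and at 64.0, 60.5 and 70.5 CPM in HG-OE, with overlapping groups and a log2 fold change of 0.029 ± 0.064 (SE, adjusted p = 0.731). For TRA2B the log2 fold change was 0.028 ± 0.046 (SE, adjusted p = 0.629). By FPKM TRA2A was the higher of both, at 16.2 ± 1.09 FPKM in HG-NC against 16.4 ± 1.31 FPKM in HG-OE. By CPM TRA2B was the higher, at a mean of 164 CPM in HG-NC against 63.8 CPM for TRA2A.

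Among the splice site factors, U2AF2 and SF1 were higher, RBM39 was lower and U2AF1 was not called. U2AF2, the large subunit of U2AF, binds the polypyrimidine tract. It rose from 444, 449.8 and 451 CPM in HG-NC to 536, 554 and 514 CPM in HG-OE, without overlap, and the log2 fold change was 0.25 ± 0.037 (SE, adjusted p = 6.89e-05). It was also the most abundant of these factors per length, at 97.4 ± 1.17 FPKM in HG-NC against 115 ± 4.005 FPKM in HG-OE. SF1, which recognizes the branch point, had a log2 fold change of 0.15 ± 0.039 (SE, adjusted p = 0.00467), and RBM39, a U2AF-related coactivator, one of -0.11 ± 0.038 (SE, adjusted p = 0.0262). U2AF1, the small subunit that reads the AG at the end of the intron, had a log2 fold change of -0.020 ± 0.17 (SE, adjusted p = 0.928) at only 0.367 ± 0.0862 FPKM in HG-NC against 0.357 ± 0.0208 FPKM in HG-OE. The gene has a near-identical copy. Of the 100-base windows of the U2AF1 transcript, 98.6% also occur in U2AF1L5, and only uniquely mapped reads were counted. U2AF1L5 had 140% of the counts of U2AF1. Summed over both genes, the level was 10.9 ± 1.47 CPM in HG-NC against 10.7 ± 0.858 CPM in HG-OE (exact two-sided permutation test, n = 3 and 3, p = 0.9).

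**Figure D3:**
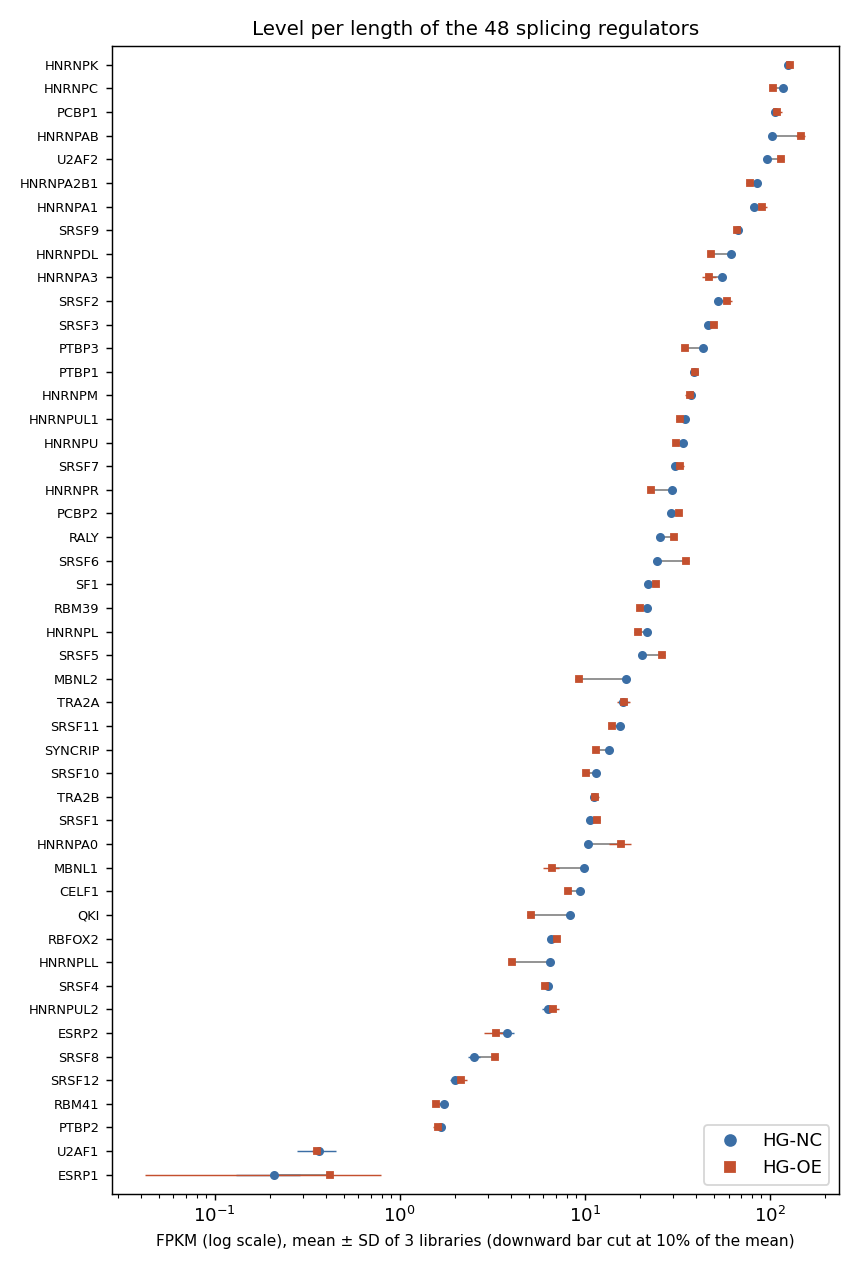
Level per length of the 48 members in FPKM (horizontal axis, log scale), in the order of HG-NC, with mean ± SD of 3 libraries for HG-NC (circles) and HG-OE (squares). The members span from 0.210 FPKM (ESRP1) to 126 FPKM (HNRNPK) in HG-NC, and the groups stand visibly apart for example for MBNL2, QKI, HNRNPLL and HNRNPAB.

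By the deposited FPKM, the order of the highest members changed at its top. This order depends on the length used. HNRNPA2B1, at 85.8 FPKM in HG-NC, had 1210 CPM there and a main annotated transcript of 3628 bases. HNRNPK had 715 CPM in HG-NC and a main annotated transcript of 2889 bases. In HG-NC, HNRNPK (126 FPKM), HNRNPC (118 FPKM), PCBP1 (107 FPKM) and HNRNPAB (103 FPKM) were above 100 FPKM. In HG-OE, HNRNPAB came first with 148 FPKM, followed by HNRNPK with 129 FPKM and U2AF2 with 115 FPKM. At the low end 14 members were under 10 FPKM in HG-NC and 15 were in HG-OE. Summed over the 22 hnRNP members, the level was 1073 ± 8.97 FPKM in HG-NC and 1076 ± 39.1 FPKM in HG-OE, a difference within the spread of HG-OE. Summed over the 12 SR proteins, the libraries were between 289 and 296 FPKM in HG-NC and between 310.0 and 328 FPKM in HG-OE, without overlap. For the 5 genes of the H/F family, HNRNPF included, the sums were 196 ± 0.445 FPKM and 199 ± 0.970 FPKM.

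Related regulators often bind the same elements, so the ratio of their levels within each library was compared for 12 pairs. Such a ratio does not depend on library size. In 7 pairs (58.3%) the libraries of both groups did not overlap, against 59.0% of single genes over the whole table, so that this count is near the background. Each of the 7 came with an exact two-sided permutation p of 0.1 (0.171 after Benjamini-Hochberg adjustment over the 12 pairs), which is the smallest that 3 libraries against 3 allow. No pair could thus pass a threshold of 0.05. HNRNPL over HNRNPLL had the widest shift, with a ratio of 3.69 ± 0.208 in HG-NC against 5.22 ± 0.357 in HG-OE. The ratio of HNRNPC over RALY was 4.47 ± 0.186 in HG-NC against 3.33 ± 0.0531 in HG-OE. PTBP1 over PTBP3 had ratios of 0.822 ± 0.0397 in HG-NC against 1.04 ± 0.0560 in HG-OE, where PTBP3 fell and PTBP1 was not called.

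Among the A/B proteins, HNRNPA1 over HNRNPA2B1 was at 0.508 ± 0.00586 in HG-NC against 0.613 ± 0.0128 in HG-OE. The MBNL1 over MBNL2 ratio was 1.21 ± 0.0455 in HG-NC against 1.45 ± 0.0788 in HG-OE, higher in every HG-OE library. The last pairs without overlap were HNRNPR over SYNCRIP, at 1.81 ± 0.0347 in HG-NC against 1.64 ± 0.0262 in HG-OE, and HNRNPUL1 over HNRNPUL2, at 6.85 ± 0.470 in HG-NC against 6.06 ± 0.222 in HG-OE. In the other 5 pairs the groups overlapped. These were PTBP1 over PTBP2 (p = 0.5), PCBP1 over PCBP2 (p = 0.2), TRA2A over TRA2B (p = 1), U2AF1 over U2AF2 (p = 0.3) and ESRP1 over ESRP2 (p = 1), by the same exact test. TRA2A over TRA2B was nearly the same in both groups, at 0.388 ± 0.0162 in HG-NC against 0.388 ± 0.00873 in HG-OE.

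**Figure D4:**
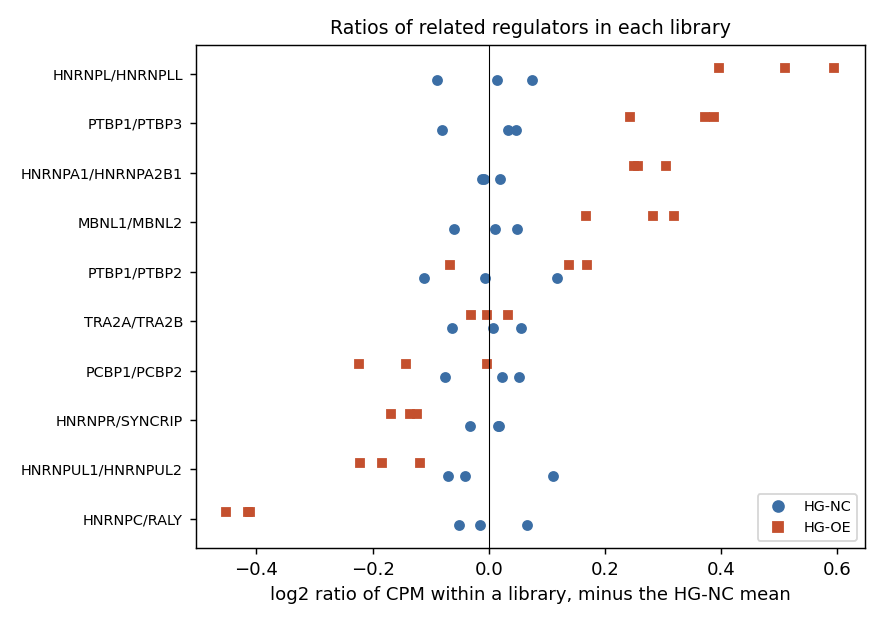
Log2 ratio of the CPM of 2 related genes within each library, minus the HG-NC mean of that pair (horizontal axis), for 10 of the 12 pairs (those with ESRP1 and U2AF1, of low counts, are left out), with 1 symbol per library. The HG-OE squares lie clear of the HG-NC circles for 7 pairs, to the right for HNRNPL/HNRNPLL, PTBP1/PTBP3, HNRNPA1/HNRNPA2B1 and MBNL1/MBNL2 and to the left for HNRNPC/RALY, HNRNPR/SYNCRIP and HNRNPUL1/HNRNPUL2.

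The members' values moved with those of the genes beside them, as values did across the whole table. Each member was set beside the median over the other genes within 10 Mb that had a mean of at least 100 counts. Across 47 members (ESRP1 is left out for its low counts), this median and the member's own log2 fold change had a Pearson r of 0.54, and across 12357 such genes of the whole table r was 0.43. These are descriptions across genes that share the same 6 libraries, and overlapping neighbourhoods are not independent. Of the 31 called members, 23 had the sign of their neighbours, and 22 came closer to 0 once the neighbours' median was subtracted. The same counts over all called genes were not made, so these have no background beside them. HNRNPAB went from 0.54 to 0.067 and HNRNPDL from -0.34 to 0.022, so that these differ little from the genes around them. HNRNPA0 and HNRNPLL kept 0.32 and -0.32.

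Other members stood away from their neighbourhood. MBNL2 kept -0.75 after subtraction, QKI -0.45 and MBNL1 -0.40. Among the SR proteins SRSF8 kept 0.41, SRSF6 0.35 and SRSF5 0.30. PTBP3 had a neighbourhood median of 0.048 and kept -0.35. For SRSF7, a member that was not called, the neighbours were at -0.34, which leaves 0.44, and for SRSF1 they were at -0.25, which leaves 0.39.

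**Figure D5:**
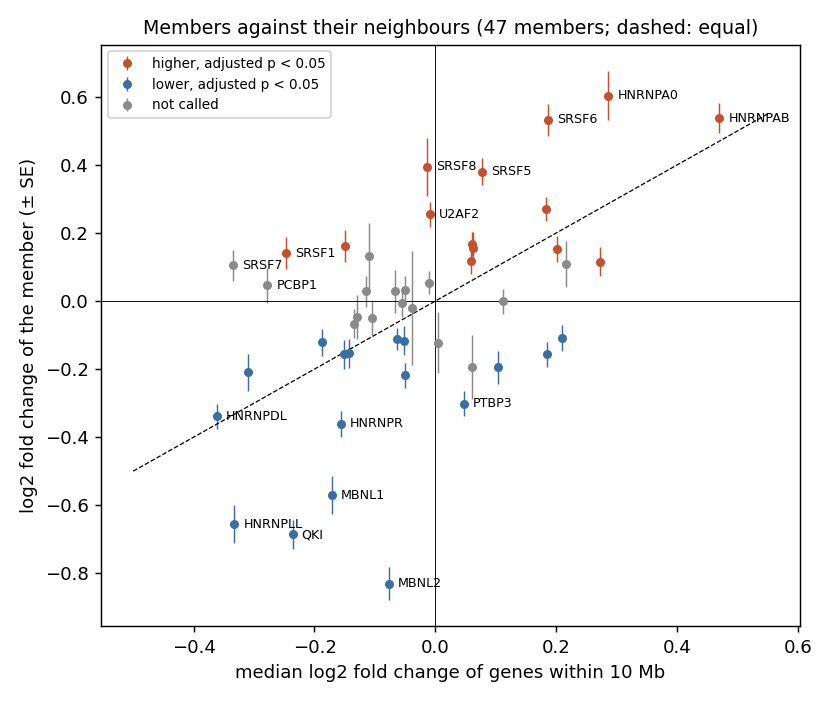
Log2 fold change of a member with ± SE (vertical axis) against the median log2 fold change of well-counted genes within 10 Mb (horizontal axis) for 47 members, ESRP1 left out, with the dashed line where both are equal. The points have a Pearson r of 0.54, HNRNPAB and HNRNPDL lie on the line, and MBNL2, QKI and HNRNPLL lie below it.

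The wider splicing machinery was read from the same fit. Of 13 U1 and Sm proteins, 4 were higher (SNRPD3 most, at 0.60) and 3 lower (SNRPB most, at -0.45). Of 14 proteins of U2 and SF3, which bind the branch point, 2 were higher (PUF60 most, at 0.26) and 5 lower (SF3B6 most, at -0.63). Among 14 proteins of the tri-snRNP and the PRPF19 complex, 2 were higher (PRPF19 most, at 0.31) and 4 lower (PLRG1 most, at -0.47). These shares of called genes, 53.8%, 50.0% and 42.9%, are near or under the 51.8% of all genes, and under the 68.6% of genes with a mean of at least 1000 counts.

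The kinases that phosphorylate SR proteins, with their import receptor, had 2 of 9 higher (CLK3 most, at 0.30) and 4 lower (CLK1 most, at -0.55). Of 13 SR-related proteins 4 were higher (SRRM2 most, at 0.50) and 6 lower (SREK1 most, at -0.40). The exon junction and nonsense-mediated decay factors, which remove transcripts with premature stop codons, had 1 of 15 higher (RBM8A, at 0.42) and 8 lower, and 6 were not called. UPF3B fell most, by a log2 fold change of -0.73 ± 0.057 (SE, adjusted p = 2.20e-07). Their median log2 fold change was -0.20, against 0.01 over all genes tested. Of the 27 tested among 29 other RNA-binding splicing regulators, 8 were higher and 9 were lower. RBM3, a cold-inducible protein, rose most, from 153 ± 3.12 CPM to 302 ± 12.8 CPM, just short of 2-fold, with a log2 fold change of 0.98 ± 0.042 (SE, adjusted p = 9.42e-10). KHDRBS3 fell most, at -0.72. In these 4 lists 66.7%, 76.9%, 60.0% and 63.0% of the tested genes were called, against 51.8% of all genes and 68.6% of those with a mean of at least 1000 counts, so that only the SR-related proteins exceeded the latter.

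Within the H/F family HNRNPF and HNRNPH2 were higher and HNRNPH1 and HNRNPH3 lower. HNRNPH3, at 279 ± 12.6 CPM in HG-NC against 122 ± 4.62 CPM in HG-OE, was the only gene of these splicing lists past the DEG threshold, with a log2 fold change of -1.196 ± 0.045 (SE, adjusted p = 4.24e-10). GRSF1, which acts in mitochondria, was at 0.0091 (adjusted p = 0.858).

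Some counts can hold reads of other genes. Outside U2AF1, the largest share of windows found at another locus was that of HNRNPA1 (27.1%). Its 31 copies in the table that are named HNRNPA1P with a number had 2.51% of its counts. HNRNPA1L3, the gene with the most shared windows, is not among these copies, and its counts were not examined. Genes on the opposite strand cover parts of the transcripts of PCBP1 (64.2%, PCBP1-AS1), HNRNPA3 (56.3%, NFE2L2), PCBP2 (45.6%, MAP3K12), SRSF9 (37.4%, GATC) and SRSF2 (21.2%, MFSD11). The libraries are directional, but whether counting used the strand is not given in the sources used here, and if it did not, reads of these partners cannot be told apart. On the same strand, readthrough or overlapping transcripts share windows with SYNCRIP (62.2%), HNRNPUL2 (44.8%), SRSF1 (26.7%), PCBP2 (25.0%) and HNRNPL (22.6%).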

How the data were processed

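RNA-seq of 6 libraries from HK-2 cells was used, 3 of HG-NC and 3 of HG-OE, grouped by their labels. The members and all gene lists were chosen with earlier results of these data known. The authors used FASTX-Toolkit for trimming and HISAT2 for alignment to GRCh38, and took uniquely mapped reads for each gene's count. The deposited counts are whole numbers without normalization, and the authors also deposited FPKM values. The counter and annotation are not given in the sources used here. The study names ComBat_seq for batches, and whether these counts were corrected is not stated.

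The main analysis used edgeR 4.0.16 under R 4.3.3 with TMM, the default low-count filter, glmQLFTest and Benjamini-Hochberg adjustment over 17142 genes. The common biological coefficient of variation was 0.0683. Totals of 25507595 to 29444841 counts set the counting precision, and the SE of the fit also holds the spread between libraries. Single values and ratios were compared by an exact two-sided permutation test. FPKM values served for levels between genes and for limma 3.58.1 on log2(FPKM + 1) and log2(FPKM + 0.1). DESeq2 1.42.0, glmTreat against a 1.2-fold change, other filters (no filter, at least 10 counts in every library, a mean FPKM of at least 0.1), a replicate block and each library left out were alternatives. Gene positions, exons and sequences came from GENCODE release 44 and hg38. The windows of 100 bases were matched exactly against all other transcripts. The steps were tested on simulated data.

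Values per library were given for members past the DEG threshold, for the 12 called members with the largest change and a mean of at least 100 counts, for the member of each role with the highest FPKM and for 6 members that the study names. From each pathway list the largest rise and fall among called genes were named. Where a symbol had several table rows (MATR3), the most counted was used.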

Additional observations from a re-analysis of the deposited data

How the results depend on the processing

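Under the 14 alternative settings that test for any change (glmTreat, which asks for more than 1.2-fold, is not among them), 20 of the 31 called members were called every time. The other 11 lost the call in at least 1 setting, RBFOX2 being called in 5. Calls lost without 1 library were those of HNRNPA2B1, HNRNPA3, SRSF11, RBM39 and RBFOX2 (HG-NC replicate 1), HNRNPA1, HNRNPA2B1, HNRNPL, HNRNPU, SRSF1, SRSF3 and RBM39 (HG-NC replicate 2), HNRNPA1, HNRNPA2B1, HNRNPL, SRSF1, SRSF2, SRSF3, RBM39 and RBFOX2 (HG-NC replicate 3), HNRNPA2B1 and RBFOX2 (HG-OE replicate 1), HNRNPA2B1, HNRNPU, SRSF11, RBM39 and RBFOX2 (HG-OE replicate 2) and SRSF1 (HG-OE replicate 3). By settings, 30 members were called by the Wald test of DESeq2, 31 with its size factors, 29 without a low-count filter, 31 with at least 10 counts in every library (ESRP1 then not tested), 26 by limma on log2(FPKM + 1) or log2(FPKM + 0.1) and 24 without its filter. Of these last, 9 were higher, against 14 in the main analysis. glmTreat against 1.2-fold left 10, of which 4 were higher and 6 lower, and over all genes 4160 against 8887. With 1 library left out, the count lay between 23 and 33, with 9 to 14 higher (9 without HG-NC replicate 3) and 13 to 20 lower. No member was a DEG except without HG-OE replicate 3, where 1 was (ESRP1, lower), a range of 0 to 1 for DEGs and for lower DEGs. Over all genes the 997 DEGs became 1539 without a filter, 617 with at least 10 counts in every library and 144, 724 or 138 by limma.

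With the replicate number as a block (replicate block), 32 members were called, the added one being ESRP2, and 8849 of all genes. Libraries with the same number had correlations of -0.027, 0.030 and -0.001, and those with different numbers had -0.035 to 0.034. These values do not set libraries with the same number apart. They cannot tell whether such libraries were grown or prepared together.

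Among called members, removing the neighbours' median turned the sign of HNRNPA3 (0.10), HNRNPDL (0.022), SRSF11 (0.066), SF1 (-0.048) and RBFOX2 (-0.16), and it also turned 6 members that were not called. Among members not called, at least 10 counts in every library turned HNRNPM (0.0026) and SRSF9 (0.0064). With 1 library left out, ranges that cross 0 were -0.049 to 0.024 for HNRNPM, -0.0071 to 0.094 for PCBP1, -0.014 to 0.017 for SRSF9, -0.033 to 0.083 for TRA2A, -0.015 to 0.063 for TRA2B, -0.16 to 0.18 for U2AF1 and -1.41 to 1.52 for ESRP1. The log2 ratio of TRA2A over TRA2B ranged from -0.032 to 0.028 (-3.5e-05 from FPKM) and that of ESRP1 over ESRP2 from -1.11 to 0.85. The cause of these shifts was not tested. With 3 libraries a group, outliers within a group were not tested, and gene counts do not separate splice forms.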
